A study of Mus musculus with 12 samples.

Results

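The septin genes *Sept2*, *Sept6*, *Sept7*, *Sept8*, *Sept9*, *Sept10* and *Sept11* were followed in RNA-seq of mouse oocytes with and without the RNA demethylase ALKBH5. They are 7 of 56691 genes in the count table. They were taken by gene symbol, from a list drawn up with earlier results of these data known. The table holds 12 libraries, 2 for each of 6 groups. The groups are wild type (WT) oocytes and *Alkbh5*-/- (KO) oocytes, each at the germinal vesicle (GV) stage of prophase arrest, at germinal vesicle breakdown (GVBD), when meiosis resumes, and at metaphase II (MII), the arrest that awaits fertilization. All oocytes came from 3-week-old C57BL/6 females primed with PMSG, a gonadotropin, were freed of cumulus cells and, after GV, were cultured. The study's methods also name milrinone, an inhibitor that holds oocytes at GV, in the media used before culture began, for both genotypes alike. No other allele is named for any group. The knockout is a whole-body deletion, so the oocytes also grew without ALKBH5. Stages were taken by time in culture, and the study describes KO oocytes as poor at maturing, so KO GVBD and KO MII libraries may hold oocytes at an earlier stage, and genotype and stage cannot be told apart there. Each library is a pool of oocytes, whose size differs between the methods and a figure legend. The replicates are described as biologically independent.

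Septins are GTP-binding proteins that join end to end, with members of different subgroups in one complex, and assemble into filaments and rings beneath the plasma membrane. They are best known as scaffolds of cytokinesis, where they bind anillin and gather the actomyosin ring, and they also form diffusion barriers and touch microtubules. By sequence the family is divided into a SEPT2, a SEPT3, a SEPT6 and a SEPT7 subgroup. SEPT7 is the sole member of its subgroup and is a part of most septin complexes, SEPT6, SEPT8, SEPT10, SEPT11 and SEPT14 are alternatives for the same place, and SEPT9 and SEPT12 belong to the SEPT3 subgroup. In the oocyte, septins lie at the cortex and in the ring that pinches off the polar body.

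The nucleotide-binding loop shows how alike and how different the members are as RNA. The coding stretches of the P-loop, the Walker A motif that holds GTP, are given as 24 bases from GENCODE M21 transcripts (GRCm38), 5′ to 3′, with the bases that all 7 members share in capitals.
Sept7: GGtgAatctGGacTgGGaAAgTCg
Sept2: GGtgAatctGGtcTaGGaAAaTCa
Sept11: GGtgAgacaGGtaTtGGcAAaTCc
Sept6: GGggAgacaGGttTgGGcAAgTCc
Sept8: GGcgAaactGGgaTtGGcAAgTCc
Sept10: GGggAgactGGaaTtGGaAAaTCa
Sept9: GGgcAgagcGGccTcGGgAAgTCc

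Of the 24 positions, 12 were identical in all members. Pairs of members matched at 13 to 20 positions, with 20 for *Sept2* with *Sept7* and for *Sept6* with *Sept11*. In every member an intron follows the first base of the stretch. The spans, introns included, are chr9:25265496-25277566 on the plus strand for *Sept7*, chr1:93491277-93495601 on the plus strand for *Sept2* and chr5:93139563-93148409 on the plus strand for *Sept11*. They are chrX:36966769-36975063 on the minus strand for *Sept6*, chr11:53532116-53534455 on the plus strand for *Sept8*, chr10:59192339-59192698 on the minus strand for *Sept10* and chr11:117351620-117352171 on the plus strand for *Sept9*. Over the whole coding sequence, *Sept6* and *Sept11* were identical at 75.1% of aligned bases, *Sept8* and *Sept11* at 74.3%, and *Sept8* and *Sept9*, the least similar of the 21 pairs, at 53.8%. No window of 100 bases of a member's longest-coding transcript occurred in a transcript of another gene in GENCODE M21, a second *Sept2* identifier aside. A read that covers such a window thus matches 1 member alone among annotated transcripts. Exon bases outside the longest-coding transcript were not searched. That transcript holds 1380 of the 9472 exon bases of *Sept11*, 1845 of 9882 for *Sept6* and 2533 of 11631 for *Sept7*.

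Exons of 3 members overlap those of other annotated genes. A second identifier, also named *Sept2* (ENSMUSG00000116048), has all 3335 of its exon bases inside the exons of the one used here (ENSMUSG00000026276). *Sept6* shares 308 exon bases with the antisense gene *Gm15008*, which received up to 95 counts in a library. *Sept7* shares 245 bases with a pseudogene on the other strand that received 0 counts in every library. The use of strand in counting was not found in the sources used here, so within the shared 308 bases, of the 9882 exon bases of *Sept6*, reads of the 2 genes cannot be told apart.

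In units of 1e6, libraries held between 28.6 and 40.2 counts, of which 221927 to 838409 fell on the ERCC spike-in RNAs added to each tube. *Alkbh5*, the targeted gene, had 5355 to 10181 counts in WT libraries and 54 to 143 in KO libraries. All 11 oocyte markers (such as *Zp3* and *Gdf9*) were detected in every library, with summed scaled counts of 596250 to 1014578. Markers of cumulus and granulosa cells were low, with 8 to 10 of 11 detected and sums of 922 to 3621. Blood and immune markers, in contrast, ranged from 102 to 235523, hepatocyte markers from 1.9 to 33708 and heart muscle markers from 11.5 to 5806, and these sums differed between libraries of the same group. They are set beside the septin genes further on. A scaled count here is the count of a gene divided by the library's ERCC total relative to the mean ERCC total, so it follows RNA per unit of spike-in. In pooled oocytes, fewer cells and less RNA per cell cannot be told apart.

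The family was split into abundant and scarce members. *Sept7*, *Sept11* and *Sept2* had between 299 and 2942 counts in every library and held 91.1% to 99.54% of the summed scaled counts of the 7 genes. *Sept6*, *Sept8*, *Sept9* and *Sept10* had between 0 and 189 counts. Among 33089 genes with any count, the mean count of *Sept7* stood at percentile 93.0, that of *Sept11* at 92.2 and that of *Sept2* at 87.4, whereas the scarce members lay between 46.8 (*Sept10*) and 62.1 (*Sept9*). Each scarce member received 4 or fewer counts in at least 1 library.

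**Figure D1:**
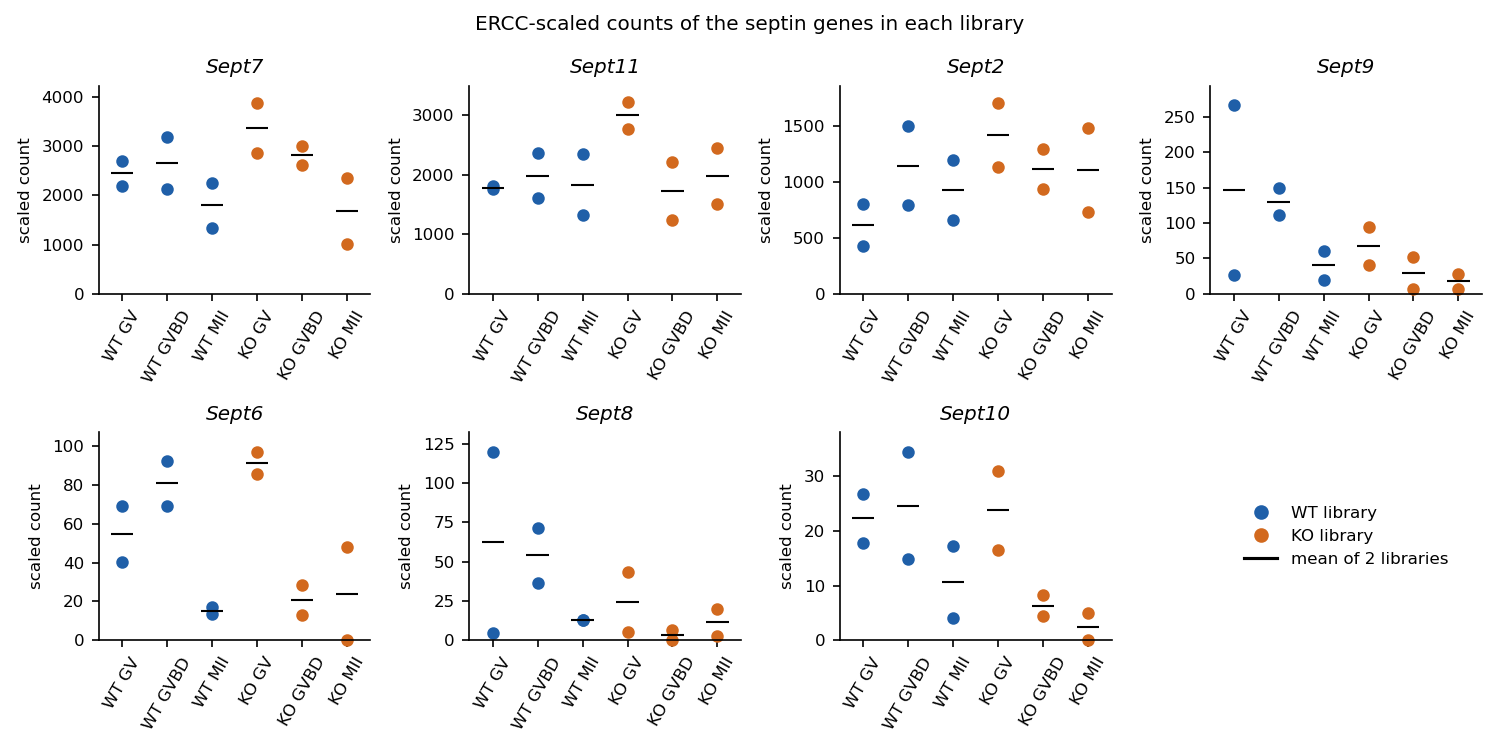
Scaled counts (count per relative ERCC total, linear axes from 0) of each septin gene in the 12 libraries, by group. Points are libraries, blue for WT and orange for KO, and black lines are means of 2 libraries. *Sept7*, *Sept11* and *Sept2* range from 421.6 to 3881.6, while the scarce genes range from 0 to 266.5 and often differ widely between the 2 libraries of a group.

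Per kilobase of exon, the levels could be ordered across genes. In WT GV, *Sept7* had 210 ± 31.3 scaled counts per kb (mean ± SD, n = 2), *Sept11* 188 ± 3.69 and *Sept2* 76.5 ± 33.4. *Sept9* followed with 19.3 ± 22.5, *Sept8* with 10.2 ± 13.4, *Sept10* with 7.17 ± 2.05 and *Sept6* with 5.54 ± 2.06. On this length the libraries of *Sept7* and *Sept11* overlapped in every group, and *Sept11* had the higher mean in WT MII (193 ± 76.9 against 155 ± 56.1), KO GV (316 ± 34.0 against 290 ± 62.1) and KO MII (209 ± 69.8 against 145 ± 82.3). *Sept2* came next in all 6 groups. The scarce members changed places between groups, and within WT GV all 4 overlapped. Of the summed level per kb, *Sept7* made up 28.1% to 42.4% of a group, *Sept11* 31.7% to 43.0% and *Sept2* 15.1% to 27.5%, while no scarce member exceeded 3.58%, the share of *Sept9* in WT GV. Dividing by the longest transcript instead put *Sept7* before *Sept11* in WT MII and KO GV as well and left *Sept2* in the next place in every group. On that length *Sept7* lay above *Sept11* without overlap in WT GV (479.37 to 591.98 against 349.72 to 359.56) and KO GVBD (574.08 to 660.04 against 247.89 to 441.27), so their order depends on the length used.

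*Sept7*, the shared subunit of septin filaments, had 2190.3 and 2704.7 scaled counts in the WT and 3881.6 and 2860.2 in the KO libraries at GV, 3182.2 and 2139.4 against 3015.7 and 2623.0 at GVBD, and 2261.2 and 1339.3 against 2358.9 and 1005.7 at MII. Both KO GV libraries were above both WT GV libraries, and WT and KO overlapped at the later stages.

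*Sept11*, of the SEPT6 subgroup, had 1758.4 and 1807.9 scaled counts in the WT and 3222.6 and 2767.1 in the KO libraries at GV, 2357.5 and 1612.6 against 1246.4 and 2218.7 at GVBD, and 2346.5 and 1317.1 against 2442.9 and 1508.5 at MII. Its 2 KO GV libraries were the highest of all 12, and the remaining groups overlapped.

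*Sept2*, which gives its name to another subgroup, had 798.5 and 421.6 scaled counts in the WT and 1700.5 and 1129.0 in the KO libraries at GV, 1493.9 and 788.1 against 1292.5 and 929.8 at GVBD, and 1191.6 and 660.2 against 1474.2 and 729.9 at MII. The low value in WT GV came from replicate 2, the library in which most *Sept2* counts were listed elsewhere. The second *Sept2* identifier received 546 counts there (64.6% of the counts on both identifiers), 397 in KO MII replicate 2 (28.0%), 41 in KO GVBD replicate 2 (4.6%), 13 in WT GVBD replicate 2 (1.4%) and 0 in the other 8 libraries. With both identifiers summed, WT GV replicate 2 rose from 299 to 845 counts, a scaled count of 1191.6, and WT GV and KO GV overlapped.

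**Figure D2:**
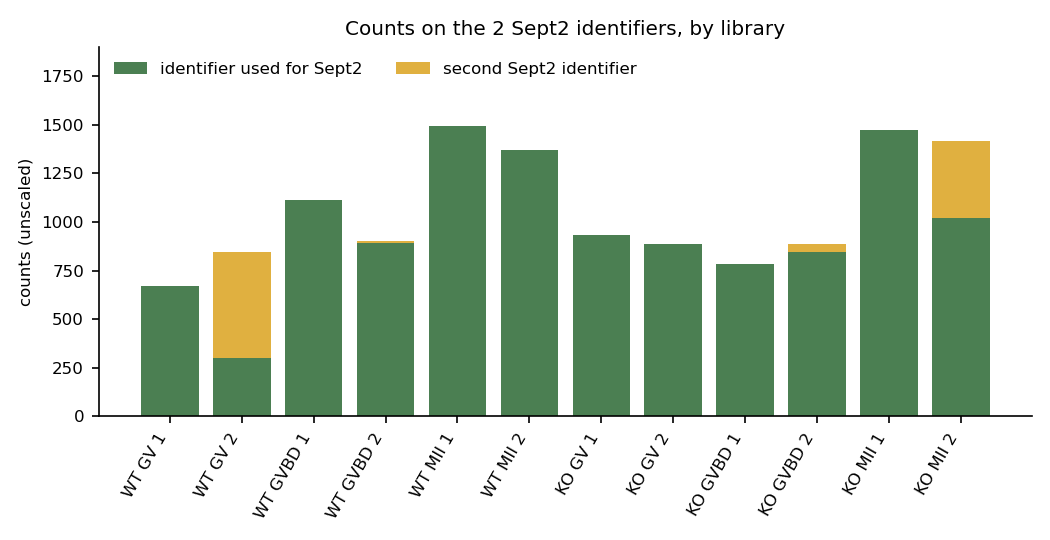
Unscaled counts on the 2 *Sept2* identifiers in each library, stacked. Green bars are the identifier used for *Sept2* and yellow bars the second one, which received 546 counts in WT GV replicate 2, 397 in KO MII replicate 2 and few or 0 elsewhere.

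*Sept9*, a septin known to bundle microtubules and actin, was the most counted of the scarce members. It had 26.1 and 266.5 scaled counts in the WT and 94.7 and 40.8 in the KO libraries at GV, 111.3 and 148.8 against 6.58 and 51.8 at GVBD, and 60.6 and 19.3 against 28.0 and 7.16 at MII. The 2 WT GV libraries span nearly the whole range of the gene, so its GV level is not known from these data.

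*Sept6*, which can take the place of *Sept11* in a complex, had 40.3 and 69.1 scaled counts in the WT and 85.6 and 97.0 in the KO libraries at GV, 92.5 and 69.1 against 13.2 and 28.6 at GVBD, and 13.6 and 16.9 against 48.0 and 0 at MII. At GVBD both KO libraries were below both WT libraries, and at GV both were above.

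*Sept8*, of the same subgroup, had 4.75 and 119.9 scaled counts in the WT and 43.7 and 5.10 in the KO libraries at GV, 36.2 and 71.7 against 6.58 and 0 at GVBD, and 12.8 and 13.0 against 20.0 and 2.87 at MII. *Sept10* was the scarcest, with 17.8 and 26.8 scaled counts in the WT and 31.0 and 16.6 in the KO libraries at GV, 14.8 and 34.5 against 8.22 and 4.41 at GVBD, and 3.99 and 17.3 against 0 and 5.01 at MII. For both genes the KO GVBD libraries were below both WT GVBD libraries, while WT and KO overlapped at GV and MII.

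The first genotype comparison, at GV, addresses oocytes that grew without ALKBH5 but had not resumed meiosis. A gene was called when edgeR gave an adjusted p below 0.05 together with a log2 fold change of 1 or more in size. All 7 members were tested and 0 were called, against 0.0561% of all 19625 tested genes. Unadjusted p-values were under 0.05 for 2 members (*Sept2* and *Sept11*) and for 17.8% of all tested genes. DESeq2 called 1 member, *Sept2*, and 3.42% of all tested genes. The log2 fold change of *Sept2* was 1.21 ± 0.38 (SE; 95% interval 0.28 to 2.14, adjusted p = 0.206), but 0.51 ± 0.31 (adjusted p = 0.452) with both identifiers summed. For *Sept11* it was 0.75 ± 0.18 (0.30 to 1.20, adjusted p = 0.169) and for *Sept7* 0.46 ± 0.23 (−0.09 to 1.02, adjusted p = 0.353). The median of all tested genes was 0.36 under spike-in scaling and 0.02 under TMM scaling, which sets most genes equal, so part of each value is a shift common to the libraries. For 4 of the 7 members (*Sept2*, *Sept6*, *Sept7* and *Sept11*) every KO library was above every WT library, which was also true of 42.3% of all tested genes. Summed markers of cumulus and granulosa cells were likewise higher in KO GV (2574 and 2421 scaled counts) than in WT GV (1693 and 1973), as they were at GVBD and MII. *Cyp19a1* had the most counts of the list at GV (827 and 1225 in KO, 788 and 577 in WT), and *Amh* was at 0 in all 4 GV libraries. In contrast, *Inha* (28 and 9 in KO, 46 and 123 in WT), *Has2* (5 and 8, 13 and 16) and *Ptx3* (4 and 9, 11 and 21) had fewer counts in KO GV. The sum thus does not speak for each marker, and the part of these markers in the septin values was not tested.

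At GVBD the abundant members differed little between genotypes, and the scarce ones were all lower in KO without passing the test. *Sept8* had 27 and 81 counts in the WT and 4 and 0 in the KO libraries, and *Sept10* had 11 and 39 against 5 and 4. Both passed the filter on low counts through their WT libraries, so a lower KO level is partly built into their being tested. Again 0 of 7 members were called, against 2.00% of 19367 tested genes, and DESeq2 called 0, against 4.65%. Log2 fold changes were 0.08 ± 0.50 for *Sept7* (95% interval −0.97 to 1.14), −0.20 ± 0.52 for *Sept11* (−1.29 to 0.90) and −0.04 ± 0.53 for *Sept2* (−1.16 to 1.08), with adjusted p from 0.911 to 0.984. They were −1.93 ± 0.83 for *Sept6* (adjusted p = 0.282), −4.11 ± 1.34 for *Sept8* (adjusted p = 0.132), −2.12 ± 0.83 for *Sept9* (adjusted p = 0.226) and −1.97 ± 1.35 for *Sept10* (adjusted p = 0.544). *Sept6*, *Sept8* and *Sept9* had unadjusted p-values under 0.05, as did 14.5% of all tested genes. Each of the 4 scarce members had both KO libraries below both WT libraries, and the same held for 17.4% of all tested genes. *Sept8* was called without KO GVBD replicate 1 (adjusted p = 0.00503; the remaining KO library had 0 counts, so the fold is not given) or without a filter on low counts (−4.10, adjusted p = 0.0388), and *Sept9* without KO GVBD replicate 2 (−4.28, adjusted p = 0.00988).

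**Figure D3:**
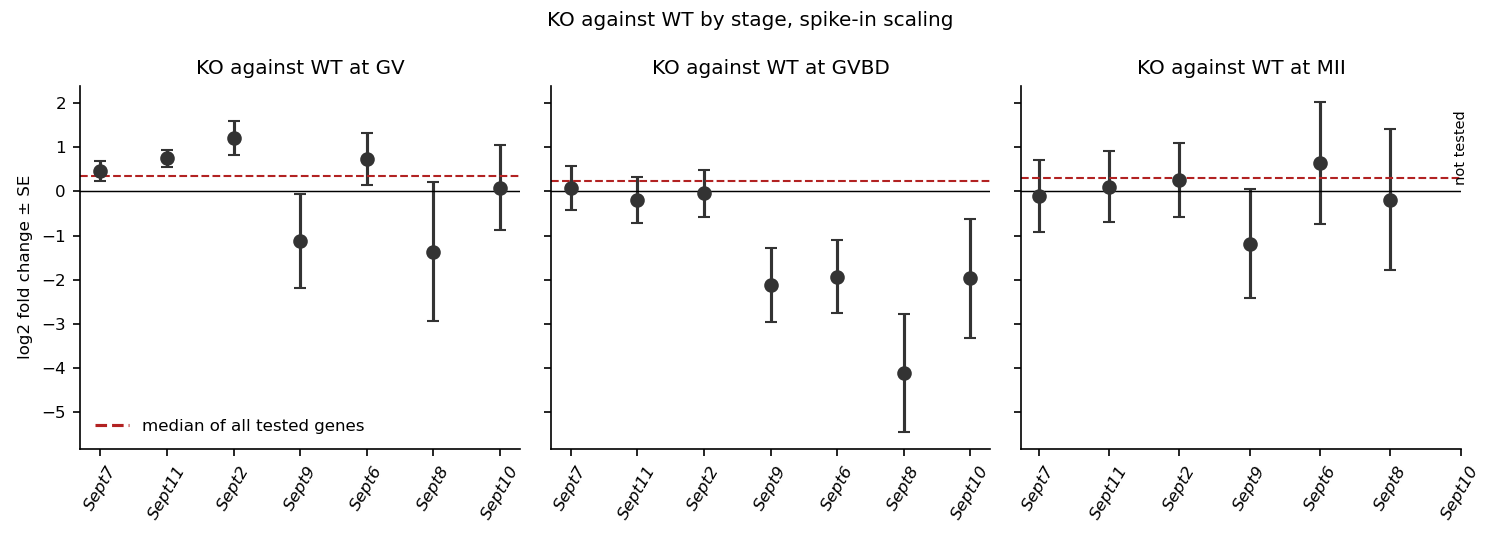
Log2 fold change of KO against WT at GV, GVBD and MII for each septin gene under spike-in scaling. Points with bars are estimates ± SE, the dashed line is the median of all tested genes (0.36, 0.23 and 0.30 from left to right), and *Sept10* did not pass the filter at MII. The 4 scarce genes lie at −1.93 to −4.11 at GVBD, and 0 genes pass the test at any stage.

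At MII, where the study looked for maternal transcripts that escape clearance, 6 members passed the filter (*Sept10* did not) and 0 were called, with 0 at an unadjusted p under 0.05 and 0 called by DESeq2. The background was 0.821% of 17426 tested genes called, 7.16% at an unadjusted p under 0.05 and 1.99% called by DESeq2. Log2 fold changes were −0.10 ± 0.81 for *Sept7* (95% interval −1.69 to 1.5), 0.11 ± 0.81 for *Sept11* (−1.48 to 1.69) and 0.25 ± 0.84 for *Sept2* (−1.39 to 1.90), each with an adjusted p of 1. These intervals leave room for a change of more than 2-fold in either direction. The study's discussion names *Septin2* (*Sept2* here) among genes whose RNA accumulated in KO MII oocytes. The study tested with DESeq2 after keeping transcripts above its own expression cut. Here DESeq2 was run with another filter and on the main identifier alone, and it did not call *Sept2*. The results are thus not like for like. The second *Sept2* identifier held 397 counts in KO MII replicate 2 and 0 in both WT MII libraries. With both identifiers summed, *Sept2* averaged 1244 ± 325 scaled counts in KO MII and 926 ± 376 in WT MII (mean ± SD, n = 2). These libraries overlapped.

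With the 3 stages pooled in a model that holds stage as a covariate, 0 of 7 members were called, against 1.24% of 22046 tested genes. The smallest adjusted p belonged to *Sept9* (0.240), the 1 member at an unadjusted p under 0.05 (18.8% of all tested genes), and the others lay between 0.392 and 0.950. The 6 KO libraries had *Sept9* values of 6.58 to 94.7 and the 6 WT libraries 19.3 to 266.5, which overlap.

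Between GV and MII oocytes clear much of their maternal RNA. The study also reports that poly(A) tails of the transcripts it assayed shorten during WT maturation. In libraries of polyadenylated RNA, lost tails and lost transcripts cannot be told apart. In WT the median of 18511 tested genes was a log2 fold change of −1.07 (quartiles −2.27 and −0.22), and 31.8% of genes were called, 64 higher and 5818 lower in MII. *Sept2* had a log2 fold change of 0.60 ± 0.51 (95% interval −0.39 to 1.59, adjusted p = 0.410), *Sept11* 0.04 ± 0.49 (−0.91 to 0.99, adjusted p = 0.969) and *Sept7* −0.44 ± 0.48 (−1.39 to 0.50, adjusted p = 0.550). They thus stood 1.67, 1.11 and 0.63 above the median gene, *Sept2* and *Sept11* above the upper quartile and *Sept7* between the median and that quartile. The interval of *Sept7* includes the median gene, and in all 4 of 7 members lay above it (these 3 and 1 scarce member). With both *Sept2* identifiers summed, its change was −0.10 ± 0.50, or 0.97 above the median, so that its direction rests on the identifier. Under TMM scaling the median gene was at −0.22, and the abundant members stood 1.64 (*Sept2*), 0.94 (*Sept2* with both identifiers), 1.08 (*Sept11*) and 0.61 (*Sept7*) above it. A change of scaling shifts all genes of a library alike, so these distances are nearly fixed whichever is used, and they were not themselves tested.

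Of the scarce members, *Sept9* alone was called over this step (−1.88 ± 0.75, adjusted p = 0.0414), so 1 of 7 members was called against the background of 31.8%. Without WT GV replicate 2 the log2 fold change was 0.61 (adjusted p = 0.912). The call was also lost without WT MII replicate 1 (−2.91, adjusted p = 0.231) or replicate 2 (−1.27, adjusted p = 0.602), under TMM (−1.14, adjusted p = 0.482) and median-of-ratios scaling (−0.94, adjusted p = 0.533), and by DESeq2 (adjusted p = 0.152), which called 0 members and 30.2% of all tested genes. *Sept6*, *Sept8* and *Sept10* had adjusted p of 0.159, 0.0705 and 0.585.

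In KO the median gene was at −1.19 from GV to MII, 1.17% of 18986 genes were called, and 0 of 7 members were. *Sept2* had a log2 fold change of −0.36 ± 0.65 (95% interval −1.83 to 1.11), *Sept11* −0.60 ± 0.58 (−1.90 to 0.70) and *Sept7* −1.0 ± 0.63 (−2.42 to 0.42), which are 0.83, 0.59 and 0.19 above the median gene. Adjusted p-values of all 7 ranged from 0.274 to 0.767. Without KO MII replicate 1, *Sept6*, *Sept7* and *Sept9* were called, *Sept7* at −1.74 (adjusted p = 0.000807). The KO MII libraries differ by more than 2-fold for *Sept7* (2358.9 and 1005.7). Whether this change differed between genotypes was tested as an interaction, which was called for 0 of 7 members and for 0% of 21009 genes, with 1193 genes (5.68%) and 0 members at an unadjusted p under 0.05. DESeq2 called 0 members and 0.709% of genes. The interaction was −0.96 ± 0.81 for *Sept2* (−0.08 ± 0.73 with both identifiers), −0.64 ± 0.67 for *Sept11* and −0.56 ± 0.74 for *Sept7*, each with an adjusted p of 1.

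**Figure D4:**
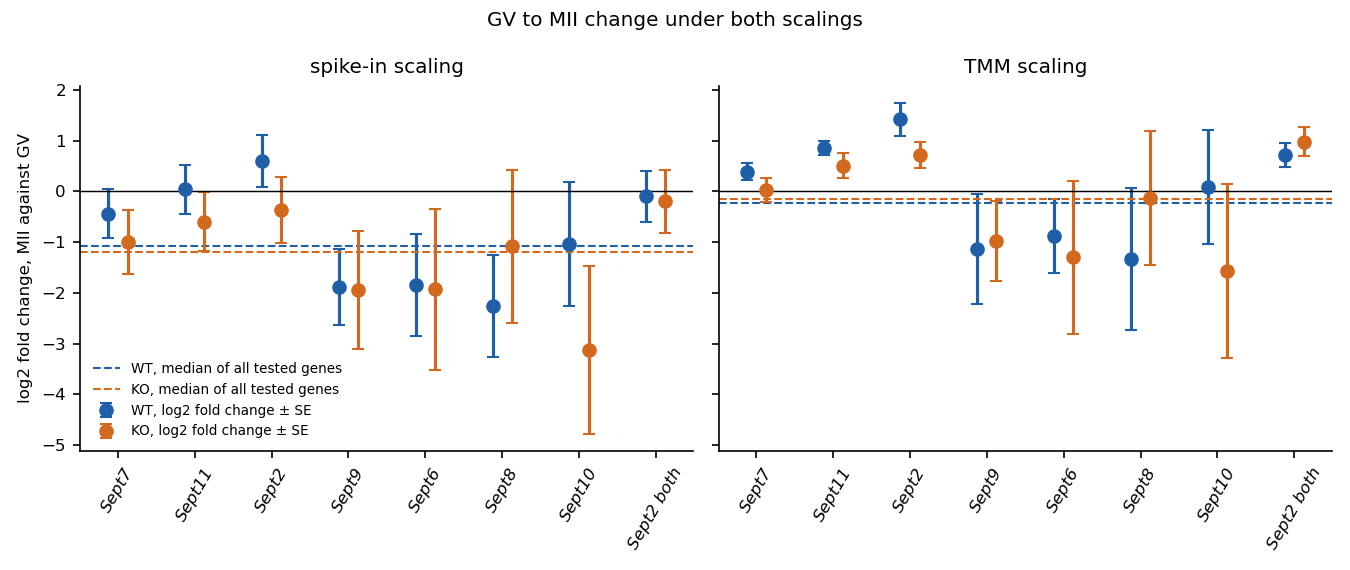
Log2 fold change ± SE from GV to MII for each septin gene, and for *Sept2* with both identifiers summed, in WT (blue) and KO (orange), under spike-in scaling (left) and TMM scaling (right). Dashed lines are the medians of all tested genes (−1.07 in WT and −1.19 in KO on the left, −0.22 and −0.14 on the right), and the WT values of *Sept7*, *Sept11* and *Sept2* lie above the WT line in both panels.

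The steps around GVBD were described in the same way. From GV to GVBD in WT, 0 of 7 members were called, against 0.0519% of 19281 genes, each with an adjusted p of 1, and 0 had an unadjusted p under 0.05, against 6.17% of genes. In KO, *Sept8* did not pass the filter, and 0 of the other 6 were called, against 0.178% of 19068 genes, with adjusted p from 0.550 to 0.858. *Sept6* and *Sept11* had unadjusted p-values under 0.05, as did 7.66% of all tested genes. Both KO GVBD libraries were below both KO GV libraries for 3 members (*Sept6*, *Sept10* and *Sept11*), and for 28.2% of all tested genes. DESeq2 called 0 members in either genotype, against 2.00% of genes in WT and 1.22% in KO.

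From GVBD to MII in WT, *Sept6* fell, with a log2 fold change of −2.40 ± 0.93 (95% interval −4.21 to −0.58, adjusted p = 0.0370), from 92.5 and 69.1 to 13.6 and 16.9 scaled counts. It was the single member called of 7, against 28.6% of 19270 genes, and the median gene was at −1.13. The direction was the same under each alternative tried, but the call was lost under TMM scaling (−1.36, adjusted p = 0.149), with all 12 libraries in one model (adjusted p = 0.239) and without any 1 of the 4 libraries. The other members had adjusted p from 0.0901 to 0.927. In KO, *Sept8* and *Sept10* did not pass the filter and 0 of the other 5 were called, against 5.34% of 18143 genes, with 0 at an unadjusted p under 0.05 (20.5% of genes) and 0 called by DESeq2 (12.5%).

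The level of *Sept6* divided the libraries as the sum of their blood and immune markers did, while *Sept8*, *Sept9* and *Sept10* overlapped between the 2 sets of libraries. The markers (hemoglobins, *Ptprc*, *Cd3e*, *Lyz2*, *Ppbp* and *Pf4*) summed to between 32238 and 235523 scaled counts in 6 libraries (WT GV replicate 2, both WT GVBD, both KO GV and KO MII replicate 1), with all 9 detected. In the other 6 they summed to between 102 and 1118, with 5 to 8 of 9 detected and the platelet gene *Ppbp* at 0 counts in every one. Hemoglobins, such as *Hba-a1* with 55632 counts in WT GV replicate 2, held most of the sum in the first 6 libraries. *Ptprc*, *Cd3e* and *Lyz2* did not divide the libraries this way. KO MII replicate 1, of the first 6, had 57, 9 and 159 counts of them, and WT GV replicate 1, of the others, had 143, 52 and 309. *Sept6* had 48.0 to 97.0 scaled counts in the first 6 libraries and 0 to 40.3 in the others, without overlap. The share of all genes that separate these 2 sets without overlap was not computed, so the division cannot be taken as particular to *Sept6*. KO MII replicate 1 was the single MII library among the first 6, so the division also follows stage in part. Medians in the first and the other libraries were 77.4 and 15.3 for *Sept6*, 103.0 and 22.7 for *Sept9*, 39.95 and 5.66 for *Sept8*, and 21.7 and 6.62 for *Sept10*. KO GV replicate 2, with the highest marker sum, had *Sept8* at 5.10, and KO MII replicate 1 had *Sept10* at 0. For the abundant members they were 2782 and 2226 for *Sept7*, 2400 and 1633 for *Sept11*, and 1333 and 994.6 for *Sept2* with both identifiers.

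**Figure D5:**
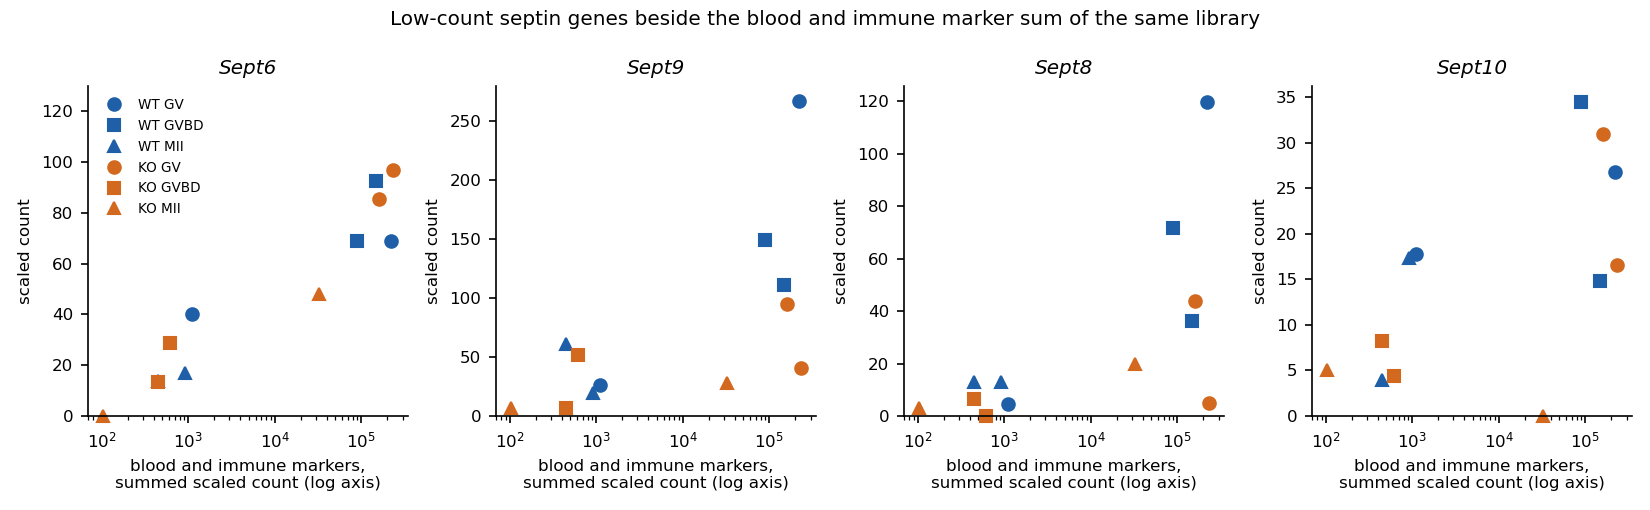
Scaled counts of the 4 scarce septin genes (linear axes) against the summed scaled count of 9 blood and immune markers in the same library (log axis). Each point is 1 of 12 libraries, with color for genotype (blue WT, orange KO) and shape for stage (circle GV, square GVBD, triangle MII), and *Sept6* in the 6 libraries farthest right on the marker axis lies above its values in the other 6 (there WT MII replicate 1 is hidden behind KO GVBD replicate 1).

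The marker sums also differed between the groups compared above. At GVBD both WT libraries were high in these markers (146237 and 89024) and both KO libraries low (442 and 619), and at that stage all 4 scarce members had both KO libraries below both WT libraries. WT MII was low in both libraries (446 and 914), as was WT GV replicate 1 (1118), while WT GV replicate 2 (218522) held 189 counts of *Sept9*. The part of blood RNA in these differences was not tested. Hepatocyte markers did not follow the same division and summed to 25110 and 79.7 in the 2 WT GVBD libraries and 5390 and 16.5 in the 2 KO GVBD libraries. Heart muscle markers followed it in part, with sums of 2772 or more in 5 of the 6 libraries high in blood markers and in 2 of the other 6, and they were 268 in WT GV replicate 1 and 4366 in replicate 2, the pair with 26.1 and 266.5 scaled counts of *Sept9*. Their part was not tested either.

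The other septin genes, the proteins that bind septins and the wider cytokinesis machinery were set beside the members. Of 6 further septin genes (*Sept1*, *Sept3*, *Sept4*, *Sept5*, *Sept12* and *Sept14*), 0 were called between KO and WT at any stage. *Sept14*, of the SEPT6 subgroup, was called lower in WT MII than in WT GV (−1.22 ± 0.49, adjusted p = 0.0431), close to the median gene, but not under TMM scaling (−0.40, adjusted p = 0.165). The median of the 4 tested there was −1.20. Per kb, *Sept14* had 1355 ± 243 scaled counts in WT GV, above *Sept7* in both libraries.

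Of 7 septin partners (*Anln*, which encodes the ring scaffold anillin, *Cdc42* and the *Cdc42ep* genes, effectors of CDC42 that bind septins), 0 were called between KO and WT at any stage. *Cdc42ep2* was lower in MII than in GV in WT (−3.41 ± 0.55, adjusted p = 1.53e-08), and than in GVBD in WT (−3.36 ± 0.74, adjusted p = 9.22e-05) and in KO (−3.50 ± 0.87, adjusted p = 0.0238). It was the single partner called of 4 tested from GV to MII in WT, against 31.8% of all tested genes, and the list's median was −0.35.

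Of 19 cytokinesis genes, 0 were called between KO and WT at GV or MII. At GVBD 1 was lower in KO, against 2.00% of all tested genes called. That gene was *Myl9*, a myosin light chain abundant in smooth muscle and platelets (−7.56 ± 0.94, adjusted p = 0.000235). With TMM scaling its adjusted p was 0.0657. From GV to MII in WT, *Myl9* (−5.23 ± 0.86) and *Myh9*, a non-muscle myosin heavy chain (−1.60 ± 0.56), were lower, and 0 of 19 were higher, with a list median of −0.49. Of all tested genes, 31.8% were called in that step. From GVBD to MII in WT, *Myl9* (−7.05 ± 0.96), *Chmp4b*, a subunit of the abscission machinery (−2.04 ± 0.78), and *Myh9* (−2.0 ± 0.73) were lower. *Cit*, which encodes citron kinase of the midbody, was higher in MII than in GVBD (1.76 ± 0.65, adjusted p = 0.0285). In WT it was not called from GV to GVBD (−1.51 ± 0.38, adjusted p = 0.306) or from GV to MII (0.25 ± 0.47, adjusted p = 0.757). From GVBD to MII in WT, 28.6% of all tested genes were called. Without WT GV replicate 2, the GV to MII value of *Myl9* was 0.25 and that of *Myh9* −0.58. That library had the highest WT blood marker sum (218522, against 1118 in WT GV replicate 1). Its heart muscle marker sum was higher as well (4366 against 268). The part of either kind of RNA in these values was not tested.

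Of 10837 genes that carry a symbol and average 50 counts or more, those whose levels over the 12 libraries were most like *Sept7* were *Ctdsp1* (Pearson r = 0.982), *Ubr4* (0.979) and *Nsd1* (0.979), on log2 scaled counts plus 1. The median gene had r = 0.723, and all genes of a library share its spike-in scaling and stage. Between members, r over the 12 libraries ranged from −0.33 for *Sept2* with *Sept10* to 0.78 for *Sept6* with *Sept7*.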

How the data were processed

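Polyadenylated RNA of pooled oocytes was sequenced in 12 libraries, 2 per genotype and stage. According to the study's methods, ERCC RNA was added before reverse transcription and cDNA was amplified with a SMART-seq kit, whereas the extraction text given with the samples describes a bulk preparation, so the protocol is not settled. The deposited counts are whole numbers of reads per gene, not normalized. Before deposit, the authors used Cutadapt for trimming, Hisat2 for alignment to GRCm38 plus ERCC, a filter for uniquely mapped reads, and StringTie. The submitters' processing notes name cutadapt 1.9, HISAT2 2.0.4 and StringTie 1.3.4d. The annotation release, the use of strand and the counting step were not found in the sources used here. Without molecular identifiers, counts are not independent molecules, and their depth does not bound the error.

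Symbols matched 52073 of 56691 genes. The *Sept2* identifier with more counts on average was taken. Groups follow the labels, and each of 11 comparisons was fitted to the counts of its groups by the quasi-likelihood test of edgeR 4.0.16 in R 4.3.3 (functions glmQLFit, glmQLFTest), with library sizes in proportion to ERCC counts, the filterByExpr filter and Benjamini-Hochberg adjustment over all tested genes. Tests were two-sided. The fit was tested on simulated data. The alternatives were DESeq2 1.42.0, scaling by TMM, by median of ratios or by the ERCC RNAs that reach 10 counts throughout, other filters, no fold minimum, all 12 libraries in one model, the replicate number as a block, and each library left out in turn. Summing the *Sept2* identifiers and crossing replicate numbers were added after seeing the data. All members, the called genes of the other septin, partner and cytokinesis lists (up to 3 per list and comparison), *Alkbh5* and the 3 genes most like the leading member are named. The members and lists were chosen with earlier results of these data known. A blood and immune marker is not reported here, and the sums leave it out. Gene models and sequences are those of GENCODE M21 on GRCm38.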

Additional observations from a re-analysis of the deposited data

Results flagged for a closer look

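The KO libraries of *Sept6* were above the WT libraries at GV and below them at GVBD, with no overlap at either stage, though the gene was called at neither (adjusted p = 0.564 and 0.282 by edgeR). KO libraries lay above WT without overlap for 42.3% of tested genes at GV, and below for 17.4% at GVBD. The log2 ratio of mean scaled counts, KO to WT, was 0.74 at GV and −1.95 at GVBD. The difference between the stages was not tested. The blood and immune marker sum of WT GV replicate 1 (1118) and of both KO GVBD libraries (442 and 619) was low, while that of the other libraries compared was 89024 or higher, and its part was not tested.

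Counts outside the identifier used for *Sept2* appeared on the second *Sept2* identifier in WT GV replicate 2 (546), KO MII replicate 2 (397), KO GVBD replicate 2 (41) and WT GVBD replicate 2 (13), above the 3 counts taken as the limit of a count of 0. All 4 carry replicate number 2, and replicate 2 of the other groups had 0. How reads were divided between these overlapping identifiers is not given in the sources used here.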

How the results depend on the processing

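With 2 libraries per group, single libraries decide several values. Of 157 recomputed counts of called members, 129 had the same members called, and 3 had the same count with another member (*Sept2* in place of *Sept9* from GV to MII in WT under TMM and median-of-ratios scaling, *Sept9* in place of *Sept6* from GVBD to MII in WT without WT MII replicate 1). From GV to MII in WT, where 1 member was called, the count was 0 without a filter, by DESeq2, with all 12 libraries in one model and with the replicate block, and 2 (*Sept6*, *Sept9*) with at least 10 counts in every library. From GVBD to MII in WT, where 1 was called, it was 0 under TMM, median-of-ratios scaling, no filter and all 12 libraries, and 2 (*Sept6*, *Sept8*) with at least 10 counts. For KO against WT, *Sept2* was called at GV (1 member) by DESeq2 and without a filter, and *Sept8* at GVBD (1 member) without a filter. Leaving out 1 library moved the count between 0 and 1 at GVBD, 0 and 2 from GV to MII in WT, 0 and 3 from GV to MII in KO, 0 and 1 from GV to GVBD in KO, and 0 and 1 from GVBD to MII in either genotype. A lone remaining library was assumed to vary like the other group.

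The labels do not say what replicate numbers share. Over genes, same-numbered deviations correlated at −0.202 (GV), 0.121 (GVBD) and −0.124 (MII) between genotypes and between −0.151 and 0.172 between stages. Endogenous counts per ERCC count were, however, higher in replicate 1 in all 6 groups, which these correlations cannot show, and a shared step for each number was not tested. The replicate block turned 2 values, *Sept2* at GVBD to 0.01 and *Sept11* from GV to MII in WT to −0.02, and took away the *Sept9* call in WT (adjusted p = 0.400); it changed no other call of a member. Crossed numbers, run for KO against WT at GV and MII and for GVBD to MII in KO, gave 0 called members each.

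Of 338 recomputed log2 fold changes of members, 34 reversed, and the cause was not tested. With TMM and median-of-ratios scaling, *Sept7* turned to −0.18 and −0.17 for KO against WT at GVBD, 0.39 and 0.53 from GV to MII in WT, and 0.03 and 0.04 in KO. *Sept11* turned to −0.12 with both for KO against WT at MII, and to 0.51 and 0.53 from GV to MII in KO. *Sept2* turned to −0.03 with both at MII and to 0.72 and 0.73 from GV to MII in KO. With both identifiers summed, *Sept2* turned to −0.10 from GV to MII in WT, and with TMM in addition to 0.98 in KO and 0.07 for the interaction. TMM and median-of-ratios scaling called *Sept2* from GV to MII in WT (1.42 and 1.53), but not with both identifiers summed (0.72 under TMM). In that comparison edgeR put *Sept11* at 0.86 ± 0.14 (adjusted p = 0.00972) with TMM and 0.99 ± 0.18 (adjusted p = 0.0121) with median-of-ratios scaling. Both values are below the fold minimum of a call.

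Leaving out 1 library gave, for KO against WT at GVBD, −0.43 to 0.49 for *Sept2*, −0.17 to 0.40 for *Sept7* and −0.67 to 0.16 for *Sept11*. At MII it gave −0.34 to 0.74, −0.84 to 0.39 and −0.28 to 0.58. From GV to MII it gave −0.44 to 0.40 for *Sept11* in WT, −0.95 to 0.06 for *Sept2* in KO, −2.91 to 0.61 for *Sept9* in WT and −6.69 to 0.25 for *Myl9* in WT. Levels per kb moved by more than the SD in 25 of 42 cases when the longest transcript replaced the exon union.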
